A study of Mus musculus with 33 samples.

Results

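The genes Gabra2, Gabra3, Gabra5, Gabrb1, Gabrb2, Gabrg1 and Gabrg3 encode alpha, beta and gamma subunits of the GABA-A receptor. They were taken by name from the table of read counts per gene of mouse ganglionic eminences, and are 7 of its 14664 genes and 7 of its 11 alpha, beta and gamma subunit genes. All 7 passed the filter on low counts that left 14510 genes for testing. The ganglionic eminences are the swellings of the embryonic ventral forebrain that produce GABAergic neurons of the striatum and interneurons of the cortex. RNA was sequenced from Dlx1/2-/- embryos, which lack the homeodomain transcription factors DLX1 and DLX2 throughout the body, and from wild-type (WT) embryos. Both groups were CD1 embryos at e13.5, with 4 libraries per genotype and, per the labels, 2 males and 2 females in each. The tissue was taken whole, so dividing progenitors and the neurons that leave them were read together. In such bulk samples fewer cells of a type and less RNA per cell cannot be told apart. The other samples of the series, ChIP and input libraries, were not used here.

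The GABA-A receptor is a chloride channel opened by GABA and built from several subunits around a pore, usually alpha, beta and gamma subunits. GABA binds where a beta subunit meets an alpha subunit, and benzodiazepines bind where an alpha subunit meets a gamma subunit. The alpha subunit largely sets the affinity for GABA and the kinetics of the channel, a beta subunit is needed for assembly and transport to the surface, and the gamma subunit affects clustering at synapses and conductance. In embryonic neurons, which hold much chloride, GABA through these receptors usually depolarises the cell. The subunit genes lie in clusters on several chromosomes. Alpha2, alpha3 and alpha5 are the alpha subunits typical of the immature forebrain.

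Both targeted genes were lower in every knockout library. Dlx1 averaged 23.4 ± 1.97 CPM in knockout and 124 ± 4.53 CPM in WT (SD, n = 4 each; CPM, counts per M reads after TMM scaling), and Dlx2 averaged 1.27 ± 0.255 CPM in knockout and 21.2 ± 5.85 CPM in WT. Total counts were 14.4 to 48.3 M reads in knockout and 20.2 to 117 M reads in WT. In knockout, 85 genes were called higher and 130 lower at an adjusted p of 0.05 in edgeR's quasi-likelihood test, together 1.48% of those tested. With the replicate number as a block these counts were 322 and 313, 4.38%. Of 19 eminence markers Gsx1 was higher and Dlx1, Dlx2, Dlx5, Dlx6, Sp8, Gad1, Gad2, Ebf1, Lhx6 and Lhx8 were lower in knockout. Of 7 oligodendrocyte precursor markers tested, Pdgfra and Gpr17 were higher, and their list summed to 95.4 to 152 CPM in knockout and 62.7 to 80.1 CPM in WT. No gene of the pan-neuronal, progenitor, pallial, endothelial, pericyte, microglial or erythroid lists passed the edgeR test without the block. With it, the pan-neuronal gene Stmn2 was lower and the progenitor genes Hes5, Notch1, Sox1 and Sox2 and the precursor gene Olig2 were higher in knockout. Of these, Hes5 was also called by DESeq2, which was run without the block (DESeq2 adjusted p = 0.0186). The pan-neuronal markers summed to 5998 to 6350 CPM in knockout and 6349 to 7277 CPM in WT, and the progenitor markers to 4611 to 5535 CPM in knockout and 3936 to 4666 CPM in WT. The part of these differences in the subunit levels was not tested.

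None of the 7 subunit genes passed the test between knockout and WT (0 of 7 called higher, against 0.586% of all genes tested, and 0 of 7 lower, against 0.896%), and for each of the 7 the 2 genotypes overlapped, while 5.98% of all genes tested had no overlap. The edgeR adjusted p was 1.00 for every subunit gene. DESeq2 also called 0 of 7, against 3.21% of the genes it tested. The number with an unadjusted p under 0.05 was also 0 by edgeR and by DESeq2, against 7.69% and 8.24% of the genes they tested. With the replicate number as a block, 0 of 7 were called, and 2 of 7 had an unadjusted p under 0.05, against 13.8% of all genes. These were Gabra2 (edgeR adjusted p = 0.358) and Gabrb2 (edgeR adjusted p = 0.245), both lower in knockout. The log2 change was negative for 5 and positive for 2, with a median of −0.13 beside −0.0027 over all genes tested. The strand setting of the counting is unknown here, and reads of a transcript antisense to a subunit gene could not be told apart. The authors' deposited table gives each of the 7 an adjusted p of 1.00.

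Reads are not scaled to transcript length here, so levels are compared within a gene and the 7 genes are not put in order of abundance. Gabra2 encodes an alpha subunit abundant in the embryonic forebrain and had 779 to 7359 reads per library. It measured 62.2, 57.5, 52.1 and 44.5 CPM in knockout libraries 1 to 4, against 64.4, 65.7, 55.7 and 53.5 CPM in WT libraries 1 to 4. The knockout library was the lower one in each of the 4 pairs of the same number, but the groups overlapped, since knockout libraries 1 and 2 lay above WT libraries 3 and 4. The means were 54.1 ± 7.58 CPM in knockout and 59.8 ± 6.10 CPM in WT (SD, n = 4 each). The log2 change was −0.15 (SE 0.12, 95% interval −0.42 to 0.13), a ratio of 0.904 with an interval of 0.748 to 1.09.

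Gabra3 lies on the X chromosome and encodes an alpha subunit found early in many neurons. It measured 27.1, 36.6, 33.3 and 24.4 CPM in knockout and 36.3, 32.8, 27.3 and 18.7 CPM in WT. The spread inside WT, where the highest library had 1.94 times the lowest, was wider than the difference of the means, 30.3 ± 5.59 CPM in knockout and 28.8 ± 7.64 CPM in WT (SD, n = 4 each). The log2 change of 0.07 (SE 0.20, 95% interval −0.38 to 0.52) took another sign in the replicates with low numbers: it was −0.12 in replicates 1 and 2 and 0.32 in replicates 3 and 4. Without WT replicate 4 it was −0.08. Xist, the transcript of the inactive X chromosome, lay between 367 and 397 CPM in knockout libraries 2 and 4 and WT libraries 1 and 4, and was at most 3.54 CPM in the others. In each genotype one of the high-Xist libraries had the highest Gabra3 and the other the lowest.

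Gabra5 encodes an alpha subunit of receptors that lie mostly outside synapses in the mature brain. It measured 17.8, 16.8, 15.4 and 7.97 CPM in knockout and 17.2, 20.5, 14.2 and 11.8 CPM in WT, so that the lowest library of either genotype was number 4. Its means were 14.5 ± 4.46 CPM in knockout and 15.9 ± 3.80 CPM in WT (SD, n = 4 each), with a log2 change of −0.13 (SE 0.25, 95% interval −0.68 to 0.42). Without knockout replicate 4 the log2 change was 0.07, and without WT replicate 2 it was 0.01, so its sign rested on single libraries.

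**Figure D1:**
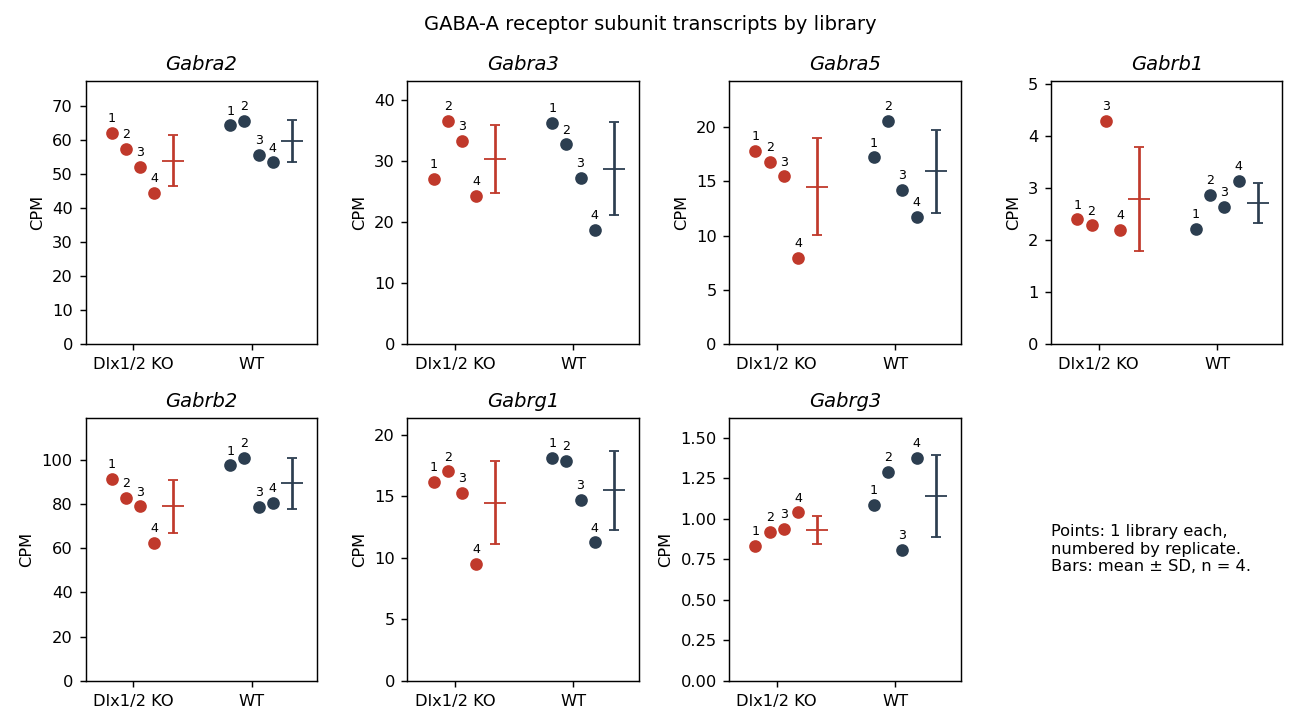
CPM of each subunit gene (vertical axes, each from 0) in the 4 Dlx1/2 knockout libraries (left of each panel) and the 4 WT libraries (right), each point a library with its replicate number and each bar the mean ± SD. The genotypes overlap in every panel, and Gabra5 and Gabrg1 are lowest in library 4 of both genotypes.

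The 2 beta genes differed widely in the reads behind them. Gabrb2, which encodes the beta2 subunit, had 1180 to 11130 reads per library. It measured 91.4, 82.6, 78.9 and 62.4 CPM in knockout and 97.4, 101, 78.6 and 80.4 CPM in WT. Knockout was lower in 3 of the 4 numbered pairs and nearly equal in the other, and knockout libraries 1 and 2 lay above WT libraries 3 and 4. The means were 78.8 ± 12.2 CPM in knockout and 89.3 ± 11.4 CPM in WT (SD, n = 4 each), and the log2 change was −0.18 (SE 0.13, 95% interval −0.48 to 0.12).

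Gabrb1 encodes the beta1 subunit and had only 57 to 253 reads per library. It measured 2.4, 2.28, 4.28 and 2.19 CPM in knockout and 2.21, 2.87, 2.63 and 3.13 CPM in WT. Knockout library 3 stood above all others, and the remaining 3 knockout libraries lay near the lowest WT library. Means of 2.79 ± 0.999 CPM in knockout and 2.71 ± 0.388 CPM in WT (SD, n = 4 each) gave a log2 change of 0.01 (SE 0.23, 95% interval −0.51 to 0.53), which became −0.22 without knockout replicate 3.

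Of the gamma genes, Gabrg1, whose subunit gives receptors with altered benzodiazepine sensitivity, measured 16.2, 17.0, 15.2 and 9.51 CPM in knockout and 18.1, 17.9, 14.7 and 11.3 CPM in WT. Library 4 was again the lowest of either genotype. The means were 14.5 ± 3.40 CPM in knockout and 15.5 ± 3.22 CPM in WT (SD, n = 4 each), with a log2 change of −0.10 (SE 0.20, 95% interval −0.55 to 0.36), and of 0.06 without knockout replicate 4.

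Gabrg3, for a gamma subunit that is scarce in most of the brain, had the fewest reads, 14 to 124 per library. It measured 0.830, 0.920, 0.936 and 1.04 CPM in knockout and 1.08, 1.29, 0.806 and 1.38 CPM in WT. WT library 3 was the lowest of all 8, and the other 3 WT libraries lay above every knockout library. The means were 0.931 ± 0.0857 CPM in knockout and 1.14 ± 0.252 CPM in WT (SD, n = 4 each). Its log2 change of −0.29 (SE 0.21, 95% interval −0.76 to 0.18) had the largest size of the 7, and 13.8% of all genes tested had one at least as large in either direction.

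The 95% intervals of the 7 log2 changes together ran from −0.76 to 0.53. The genes that make and pack GABA moved outside them. Of 8 genes for GABA synthesis, packaging, uptake and breakdown tested, 3 were called lower in knockout, against 0.896% of all genes tested. None was called higher, against 0.586%. The 3 lower genes were Slc32a1, the vesicular GABA transporter, and Gad1 and Gad2, which make GABA from glutamate. Gad2 averaged 56.3 ± 3.68 CPM in knockout and 158 ± 7.0 CPM in WT (SD, n = 4 each), a log2 change of −1.49 (95% interval −1.67 to −1.31, edgeR adjusted p = 7.67e-06). Slc32a1 averaged 3.44 ± 1.43 CPM in knockout and 31.9 ± 8.04 CPM in WT (log2 change −3.23), and Gad1 48.0 ± 9.86 CPM in knockout and 122 ± 3.38 CPM in WT (log2 change −1.35). The blocked fit also called Abat, which breaks GABA down, lower in knockout.

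**Figure D2:**
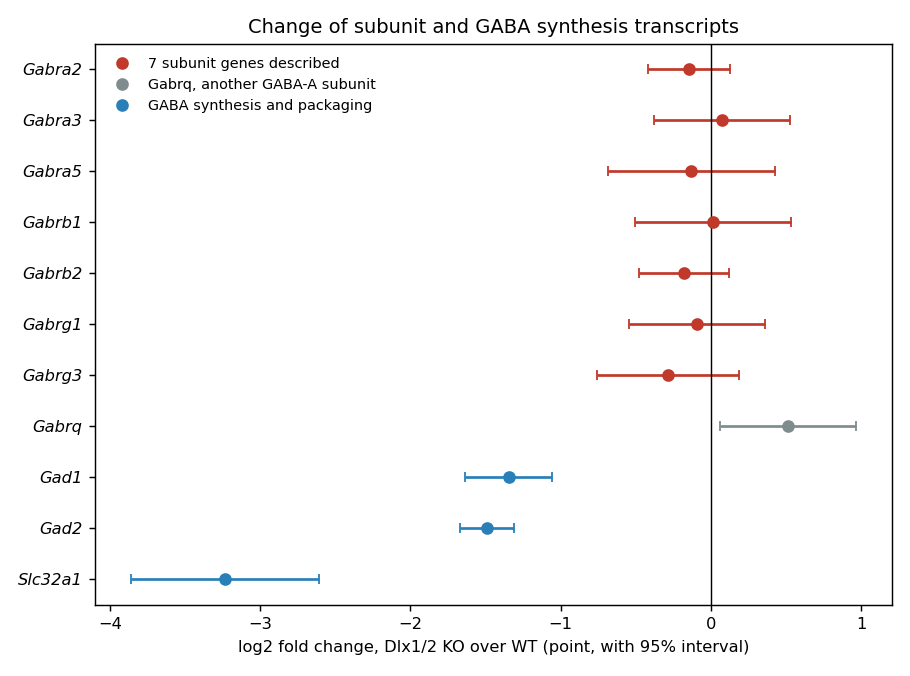
Log2 fold change of knockout over WT (horizontal axis; point with 95% interval) for the 7 subunit genes, Gabrq, Gad1, Gad2 and Slc32a1. The intervals of the 7 subunit genes all include 0, between −0.76 and 0.53, while that of Gad2 runs from −1.67 to −1.31.

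Within a library, reads of each subunit gene relative to Gad2 reads were higher in all 4 knockout libraries than in any WT library, by 2.35-fold for Gabrg3 to 3.01-fold for Gabra3. The 2-sided exact permutation p was 0.0286 for each, the smallest that 4 against 4 allows, and 0.0286 adjusted over the 7. This ratio was added after the values were seen, and 96.0% of all genes tested have such a ratio to Gad2, so nothing in it is particular to the subunit genes.

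The balance between subunits of a class was compared through the ratio of their reads within a library, which does not depend on scaling. Of the 5 pairs (3 alpha, 1 beta, 1 gamma), none separated the genotypes. The log2 ratio of Gabra2 over Gabra3 differed by −0.25, knockout minus WT (exact permutation p = 0.286, 2-sided, adjusted p = 0.714 over the 5), and that of Gabra3 over Gabra5 by 0.27 (exact permutation p = 0.314, adjusted p = 0.714). Gabra2 over Gabra5 differed by 0.02, Gabrb1 over Gabrb2 by 0.18 and Gabrg1 over Gabrg3 by 0.15, with exact permutation p values of 0.571 to 1. The genotypes overlapped in all 5 ratios.

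The libraries differed in a way the genotypes did not explain, and 4 of the subunit genes shared it. Over the 8 libraries log2 CPM of Gabra2 and Gabrb2 had a Pearson r of 0.98, Gabra5 and Gabrg1 of 0.96, and Gabra2 and Gabra5 of 0.92. All 6 pairs among Gabra2, Gabra5, Gabrb2 and Gabrg1 had an r of 0.86 or more. Gabra3 followed Gabrg1 (r = 0.80) but Gabra2 less (r = 0.48), and Gabrb1 and Gabrg3, the 2 genes with the fewest reads, had r between −0.32 and 0.18 with all others. These r are descriptions over n = 8 libraries that share their scaling. Genes outside the receptor, named below, followed each of the 4 more closely than any other subunit gene did. The share of all gene pairs with an r this high was not counted, so the pattern is not shown to be particular to these genes.

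For these 4 genes replicates 1 and 2 lay above and replicate 4 below the mean of either genotype. Mean Gabra2 was 59.8 CPM in knockout replicates 1 and 2 and 48.3 CPM in knockout replicates 3 and 4, and 65.0 CPM and 54.6 CPM in the same WT replicates. For Gabrb2 these means were 87.0 CPM and 70.7 CPM in knockout, and 99.1 CPM and 79.5 CPM in WT. The log2 change of Gabra2 was −0.12 in replicates 1 and 2 and −0.18 in replicates 3 and 4, and that of Gabrb2 −0.19 and −0.17. Both were thus of like size in either pair of replicates, and smaller than the difference between the pairs. The sum of the progenitor markers had r of −0.79 with Gabra2, −0.75 with Gabra5, −0.85 with Gabrb2 and −0.70 with Gabrg1 (n = 8). That of the pan-neuronal markers had r of 0.02 with Gabra2, −0.17 with Gabra5, 0.09 with Gabrb2 and −0.27 with Gabrg1. Members of either list varied in different directions, so neither sum speaks for each member. In knockout libraries 1 to 4 the progenitor gene Fabp7 measured 1514, 1534, 982 and 1108 CPM, and Nes 437, 358, 549 and 790 CPM. The pan-neuronal gene Dcx measured 1184, 1325, 983 and 885 CPM there, and Mapt 372, 295, 619 and 527 CPM. The part of these lists in the spread was not tested.

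**Figure D3:**
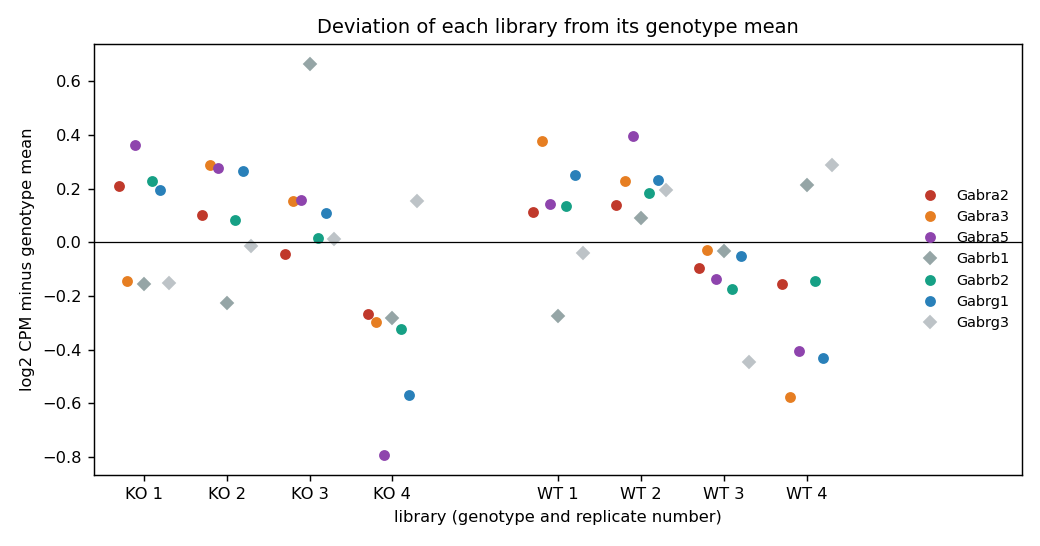
Deviation of log2 CPM from the genotype mean (vertical axis) in each knockout library (left) and WT library (right) for the 7 subunit genes, with diamonds for Gabrb1 and Gabrg3. Gabra2, Gabra3, Gabra5, Gabrb2 and Gabrg1 lie below 0 in library 4 of both genotypes, at −0.79 for Gabra5 in knockout and −0.58 for Gabra3 in WT, while Gabrb1 stands at 0.67 in knockout library 3.

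The promoters of the 4 genes that varied together are shown to set side by side the sequence at their starts, 250 bases before to 50 after the annotated start, from RefSeq on GRCm38.p6, 5′ to 3′ on the gene's strand. The windows are chr5:71095800-71096099 on the minus strand for Gabra2, chr7:57510010-57510309 on the minus strand for Gabra5, chr11:42420190-42420489 on the plus strand for Gabrb2 (the first of its 3 windows) and chr5:70842568-70842867 on the minus strand for Gabrg1. Capitals mark TAATTA, a core that homeodomain factors bind.
Gabra2: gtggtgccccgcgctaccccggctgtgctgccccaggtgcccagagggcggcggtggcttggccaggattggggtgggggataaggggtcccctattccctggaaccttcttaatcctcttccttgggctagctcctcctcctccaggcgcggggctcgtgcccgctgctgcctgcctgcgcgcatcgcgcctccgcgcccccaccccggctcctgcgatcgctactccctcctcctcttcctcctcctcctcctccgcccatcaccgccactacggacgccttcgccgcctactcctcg
Gabra5: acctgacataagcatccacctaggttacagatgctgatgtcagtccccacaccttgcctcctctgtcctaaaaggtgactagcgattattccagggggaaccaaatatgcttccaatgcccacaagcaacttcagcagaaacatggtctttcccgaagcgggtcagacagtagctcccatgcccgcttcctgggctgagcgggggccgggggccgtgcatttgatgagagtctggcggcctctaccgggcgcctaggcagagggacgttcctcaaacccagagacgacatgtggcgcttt
Gabrb2: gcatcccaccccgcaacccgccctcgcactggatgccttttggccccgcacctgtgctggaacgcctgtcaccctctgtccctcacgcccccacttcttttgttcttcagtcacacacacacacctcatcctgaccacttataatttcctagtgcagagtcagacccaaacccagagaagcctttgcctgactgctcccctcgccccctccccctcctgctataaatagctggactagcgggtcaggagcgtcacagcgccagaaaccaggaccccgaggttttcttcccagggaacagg
Gabrg1: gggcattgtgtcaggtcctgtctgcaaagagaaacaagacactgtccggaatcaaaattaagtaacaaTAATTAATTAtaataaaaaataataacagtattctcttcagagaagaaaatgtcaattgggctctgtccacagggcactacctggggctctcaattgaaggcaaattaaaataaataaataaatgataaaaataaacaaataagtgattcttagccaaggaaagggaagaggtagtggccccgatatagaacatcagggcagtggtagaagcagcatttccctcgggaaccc

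Base composition ranged from 38.3% GC in Gabrg1 to 70% GC in Gabra2, with 56.7% in Gabra5 and 59% in Gabrb2, around a median of 52.7% over 32851 promoter windows of mouse genes. All 7 genes matched the table, with 11 windows in all. TAATTA or TAATTG, read on both strands, was in 1 of the 11, that of Gabrg1, which holds 2 overlapping copies of TAATTA, and in 12.4% of all windows (TAATTA 5.29%, TAATTG 8%). A match is a run of letters, not a measured site.

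Among 13369 genes with a mean of at least 1 CPM, those whose log2 CPM followed each subunit gene most closely over the 8 libraries were C130030K03Rik, Fut9 and Rab3c for Gabra2, and Hectd2, Gabra2 and Pgm2l1 for Gabrb2. For Gabra3 they were Polg2, Tial1 and Ppp3r1, for Gabra5 Erc2, C77370 and Zfp128, and for Gabrg1 Nmt2, Ankrd46 and Nalcn. For Gabrb1 they were Ncoa3, Pcdha2 and Prickle2, and for Gabrg3 Ttc39b, Zscan2 and Lyrm7. The highest Pearson r was 0.95 for Gabrg3 and between 0.97 and 0.99 for each other subunit gene (n = 8 libraries), each the best of 13369. No gene named here was called between the genotypes.

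The 7 genes lie on 4 chromosomes in clusters of subunit genes. Gene order was taken from RefSeq on GRCm38.p6. The flanking genes are the nearest that the count table holds, so genes absent from it may lie between. On chromosome 5 Gabrg1, Gabra2 and Gabrb1 lie in that order between Gnpda2 and Commd8. On chromosome 7 Gabrg3 and Gabra5 lie between Herc2 and Atp10a, and on chromosome 11 Gabrb2 lies between Ccng1 and Atp10b. On the X chromosome Gabra3 lies beside Gabrq, between Prrg3 and Cetn2. None of the 8 flanking genes was called between the genotypes, against 1.48% of all genes tested, and their edgeR adjusted p was 1.00 throughout. Over the 8 libraries Gabra2 and Gabrg1 on chromosome 5 had r = 0.88, and Gabra2 and Gabrb1 −0.13. On chromosome 7 Gabra5 and Gabrg3 had −0.10. Gabrb1 and Gabrg3 had as few as 57 and 14 reads in a library, so their low r cannot show that neighbours varied apart.

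Of the other 6 GABA-A subunit genes of the table, none was called, against 1.48% of all genes tested. An unadjusted p under 0.05 was seen for 1 by edgeR and 1 by DESeq2, against 7.69% and 8.24% of the genes they tested. Gabrq, for the theta subunit, was that one in edgeR. It averaged 5.66 ± 1.48 CPM in knockout and 3.90 ± 0.743 CPM in WT (log2 change 0.51, 95% interval 0.06 to 0.97, edgeR adjusted p = 0.492, with the block 0.0631). Of 5 GABA-B and glycine receptor genes tested, none was called, with 0 at an unadjusted p under 0.05 by edgeR and 0 by DESeq2 (median −0.15). With shares this low over all genes, so few genes say little about either list.

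Proteins that place the receptor in the membrane were described through 28 genes of the inhibitory synapse scaffold and of receptor trafficking. Only Nrxn3, a presynaptic adhesion protein, was called, lower in knockout, against 0.896% of all genes tested. A negative log2 change was seen for 19 of the 28 (median −0.02, beside −0.0027 over all genes tested). Nrxn3 averaged 45.0 ± 3.18 CPM in knockout and 129 ± 9.67 CPM in WT (SD, n = 4 each; log2 change −1.52, SE 0.09, edgeR adjusted p = 1.29e-05). The fit with the replicate number as a block, which called 4.38% of all genes tested in either direction, also called 2 genes higher in knockout. Hap1, a trafficking adaptor, had 152 ± 58.6 CPM in knockout and 104 ± 29.6 CPM in WT (adjusted p = 0.799, with the block 0.00611), and Mdga1, an adhesion protein that binds neuroligins, 31.6 ± 4.56 CPM in knockout and 22.3 ± 5.13 CPM in WT (adjusted p = 0.313, with the block 0.0162).

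The direction of current through the receptor depends on chloride transport, for which 14 genes of chloride and bicarbonate handling were tested. None was called without the block, against 1.48% of all genes tested. An unadjusted p under 0.05 was seen for 2 by edgeR and 2 by DESeq2, against 7.69% and 8.24% of the genes they tested. The blocked fit, which called 4.38% of all genes in either direction, called 1, Slc12a2, lower in knockout. Slc12a2 encodes NKCC1, the importer that keeps chloride high in immature neurons, and is also used by progenitors. It measured 244, 243, 152 and 187 CPM in knockout and 375, 367, 265 and 240 CPM in WT, lower in knockout in each of the 4 numbered pairs, while knockout libraries 1 and 2 lay just above WT library 4. Its log2 change was −0.59 (SE 0.19; edgeR adjusted p = 0.276, with the block 0.000999).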

How the data were processed

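Total RNA of e13.5 ganglionic eminences was made into stranded libraries and sequenced as single-end reads. The labels call the molecule polyA RNA while the protocol names a ribosome-depletion kit, and which applies was not tested. Reads were aligned with STAR 2.4.2a and the build was mm9, per the submitters' processing notes. The authors deposited raw counts per gene symbol, with 1 column per library. They also deposited a log2 fold change, a log2 mean level, a score from a likelihood ratio test and its p-value, from their own comparison, per the file headers. No source used here gives the counting tool, the annotation or the strand setting. The deposited peak lists are on mm9, for which no annotation was at hand, and were not used here. Nothing in the labels says more of how the 4 samples of a genotype were handled, so p-values measure the spread between these samples.

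Counts of 4 knockout and 4 WT libraries were tested with edgeR 4.0.16 in R 4.3.3 (quasi-likelihood test, TMM scaling, low counts removed by filterByExpr with its minimum set to 10, Benjamini-Hochberg over 14510 genes, 0.05, 2-sided, genotype only). Standard errors and 95% intervals came from the same fit. CPM used TMM-scaled totals, and correlations used log2 CPM with a prior count of 2. Ratios within a library used reads plus 0.5. DESeq2 1.42.0, another scaling, no filter, the replicate block, single replicates left out and pairs of replicates were the alternatives. Only the edgeR fit without the block was tested on simulated counts, drawn for each gene independently and so without variation shared between genes. The blocked fit, DESeq2 and the ratio tests were not simulated. Replicate numbers were taken as pairing the samples, since deviations from the genotype means of libraries with the same number had correlations of 0.15, 0.29, 0.37 and 0.48. Crossed pairs were higher for numbers 1 and 2: knockout 2 with WT 1 had 0.603 and knockout 1 with WT 2 had 0.394, and the same-numbered libraries of these 2 numbers differ in Xist level. The pairing thus rests on the data, not on a label, and is uncertain for numbers 1 and 2, as are calls made with the block alone. No 2 libraries of the same genotype agreed within sampling noise (chi-square per degree of freedom at least 14.3).

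The members, gene lists and tests were chosen with earlier results of these data known. Named were all 7 subunit genes, Dlx1 and Dlx2, list members past the test, and the 3 genes most like each subunit gene. The nearest gene of the count table on each side of each cluster was also named. Abat, Hap1, Mdga1, Slc12a2, Gabrq, Xist and the marker genes that edgeR called only with the block were named after their values were seen. Values of some other subunit genes are not reported here.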

Additional observations from a re-analysis of the deposited data

Results flagged for a closer look

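Gabrb1 in knockout library 3, at 4.28 CPM, stood apart from the other 3 knockout libraries at 2.4, 2.28 and 2.19 CPM. The gap to the nearest library took 0.903 of the group's range, above Dixon's 95% critical value for 4 samples. Of 14 groups tested (7 genes in 2 genotypes) this was the one flagged, and chance flags about 1 in 20.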

How the results depend on the processing

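The count of subunit genes called was 0 in each direction under every alternative run, including the replicate block. Other counts moved. Over the whole table DESeq2 called 230 higher and 241 lower, the replicate block 322 and 313, and replicates 1 and 2 alone 178 and 202. Without 1 replicate the counts were 50 to 66 higher and 92 to 121 lower. Among chloride genes 1 was lower with the block, in replicates 1 and 2, and in replicates 3 and 4. Among scaffold genes 2 were higher with the block and 1 in replicates 1 and 2. Some signs near 0 turned, and the cause was not tested. In replicates 1 and 2 the log2 change was −0.1183 for Gabra3 and −0.0812 for Gabrb1, which the block put at −0.00616. Without 1 replicate the log2 change ran from −0.0831 to 0.2083 for Gabra3, −0.2488 to 0.07042 for Gabra5, −0.2224 to 0.1015 for Gabrb1 and −0.2187 to 0.0602 for Gabrg1. In replicates 1 and 2 the log2 ratio differed by 0.009998 for Gabra2 over Gabra3, −0.0006866 for Gabra2 over Gabra5 and −0.01068 for Gabra3 over Gabra5. For Gabrg1 over Gabrg3 it was −0.008355 in replicates 3 and 4. Without 1 replicate it ran from −0.1579 to 0.1014 for Gabra2 over Gabra5, −0.04392 to 0.3073 for Gabrb1 over Gabrb2 and −0.0903 to 0.3986 for Gabrg1 over Gabrg3. The block changed no call among the subunit genes. Paired sign flips over 4 pairs cannot give a p below 0.125. The ratio of Gabra5 to Gad2 had an exact permutation p of up to 0.0571 without 1 WT replicate. All its knockout ratios still lay above all its WT ratios. With 1 library left out, the ratio of each other subunit gene to Gad2 had an adjusted exact permutation p of at most 0.0333. Without 1 WT replicate the ratios of Gabra2 and Gabra3 to Gad2 kept an exact permutation p of 0.0286. Why the p of Gabra5 was higher was not tested. Depth limits Gabrg3 and Gabrb1 most, with as few as 14 and 57 reads in a library.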
